A study of Mus musculus with 10 samples.

Results

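Desmin, filamin C, the small heat shock proteins of striated muscle and their co-chaperone Bag3 were followed across EDL, psoas and soleus of wild-type mice. The set held 10 genes out of 16112 in the count tables, chosen by protein family and function with earlier results of these data known. They were matched to the deposited gene IDs through the GENCODE M21 annotation of GRCm38. All 10 genes were measured in all libraries. They were Des, Flnc, Bag3 and the 7 small heat shock protein genes Cryab, Hspb1, Hspb2, Hspb3, Hspb6, Hspb7 and Hspb8, and together they took 0.0509% to 0.209% of a library's counts.

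The study compared 3 skeletal muscles by total RNA sequencing in order to ask how far muscles of the same or of different fiber type differ in their transcripts. The libraries came from wild-type mice of the B6C3Fe a/a-Ttnmdm/J colony, with the wild-type allele of Ttn, aged 32 to 54 days: 3 libraries of EDL (extensor digitorum longus, a fast muscle of the lower leg), 3 of psoas (a fast muscle of the lower back and hip) and 4 of soleus (a slow muscle of the calf). Labels gave 7 animal codes, 3 of which supplied more than 1 library, so libraries of different muscles were not all independent. The methods of the study state another number of mice than these codes, and the difference could not be settled here. Of the libraries, 5 were labelled male, 4 female and soleus 3 had no sex given. Each p-value measured the spread between these libraries, and in whole muscle fewer cells of a type and less RNA per cell cannot be told apart.

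In muscle fibers, desmin filaments link neighboring Z-disks to each other and to the cell membrane, and filamin C crosslinks actin at the Z-disk and membrane and unfolds under tension. Small heat shock proteins hold partly unfolded proteins in a soluble state without using ATP. Bag3 joins them, Hspb8 above all, to Hsp70, and together with the ligase Chip (Stub1) and the adaptor Synpo2 this complex passes damaged filamin to autophagy, a route named chaperone-assisted selective autophagy.

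Libraries held 12737971 to 50431713 counts. EDL 1 and 2 and psoas 1 and 2 were read-trimmed before alignment, while EDL 3, psoas 3 and all soleus libraries were not, so trimming and muscle were partly confounded. RNA integrity numbers in the paper's supplement were higher in every EDL library than in every psoas or soleus library, and lowest in psoas 1. RNA integrity and muscle therefore cannot be told apart in the comparisons with EDL, and the part of RNA integrity was not tested. Fiber markers followed the labels: the slow myosin gene Myh7 stood at 9824 ± 2970 normalized CPM (counts scaled to library size; mean ± SD, n = 4) in soleus, against 51.5 ± 57.8 in EDL and 6.13 ± 3.47 in psoas (n = 3 each), and the fast myosin gene Myh4 stood at 1228 ± 746, 44037 ± 9398 and 53922 ± 3425. EDL libraries also carried more RNA of tendon markers, with a summed level of 798 to 856 CPM over 9 genes against 32.2 to 84.1 in psoas and 114 to 560 in soleus, and of fibroblast markers, with 1932 to 3465 CPM over 6 genes against 623 to 947 and 597 to 1263. The part of these cells in the comparisons with EDL was not tested. Smooth muscle and pericyte markers, which matter because those cells make desmin and small heat shock proteins too, summed to 476 to 664 CPM in EDL, 384 to 473 in psoas and 410 to 641 in soleus, and none of the 12 passed the test in soleus vs EDL or psoas vs EDL. At the weaker limit of adjusted p below 0.05 in edgeR's test, 1 of the 12 was higher in psoas vs EDL and 1 lower. These were Lmod1 (log2 2.42 ± 0.57, adjusted p = 0.0221, no overlap of libraries) and Kcnj8 (log2 -0.80 ± 0.229, adjusted p = 0.0456). In soleus vs psoas 1 of the 12, Lmod1, was lower. The part of these cells in the members' differences was not tested.

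The promoters are shown first because heat shock factors bind inverted repeats of the letters GAA, and so a reader can see which members carry such a repeat near their start. RefSeq promoters of GRCm38.p6, taken from 250 bases before to 50 bases after each start, were matched for 8 of 10 members through 10 starts, and Cryab and Hspb2 had none in the table. The motif GAANNTTC, which reads the same on either strand, occurred in 7.86% of 32851 promoters, and 0.344% held 2 or more. The upstream stretch is given 5′ to 3′ for Hspb1, with 2 matches, for the downstream start of Hspb6 and for Hspb3, with 1 each, and for Hspb7, the member that differed most between muscles, with none. Capitals mark the matches.
Hspb1, chr5:135887669-135887918, plus strand: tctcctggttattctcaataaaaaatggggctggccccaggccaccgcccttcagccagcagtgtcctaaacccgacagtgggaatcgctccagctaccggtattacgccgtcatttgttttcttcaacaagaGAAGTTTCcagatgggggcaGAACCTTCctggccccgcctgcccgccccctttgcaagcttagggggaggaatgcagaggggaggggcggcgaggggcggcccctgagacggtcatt
Hspb6, chr7:30553051-30553267, plus strand, shortened where an annotated exon of the gene begins: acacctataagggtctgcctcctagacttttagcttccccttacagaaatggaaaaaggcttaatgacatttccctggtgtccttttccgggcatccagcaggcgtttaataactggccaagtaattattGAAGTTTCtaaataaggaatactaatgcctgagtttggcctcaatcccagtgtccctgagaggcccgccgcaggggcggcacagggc
Hspb3, chr13:113663677-113663926, minus strand: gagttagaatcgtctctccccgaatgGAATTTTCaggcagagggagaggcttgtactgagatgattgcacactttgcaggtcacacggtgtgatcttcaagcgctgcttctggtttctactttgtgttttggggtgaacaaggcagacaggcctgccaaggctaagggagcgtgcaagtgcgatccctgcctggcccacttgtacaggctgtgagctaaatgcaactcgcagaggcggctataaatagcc
Hspb7, chr4:141420529-141420778, plus strand: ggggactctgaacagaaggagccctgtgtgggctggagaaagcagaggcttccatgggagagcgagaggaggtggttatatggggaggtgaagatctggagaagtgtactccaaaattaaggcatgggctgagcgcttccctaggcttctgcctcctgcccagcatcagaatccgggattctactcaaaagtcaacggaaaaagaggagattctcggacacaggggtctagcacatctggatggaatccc

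In the same windows Hspb8 and Bag3 each held 1 match just after the start, and Des, Flnc (at both of its starts) and the upstream start of Hspb6 held none. The other arrangement of the repeat, TTCNNGAA, was found in 8.52% of all promoters and in none of the 10 promoters of the 8 members searched. A match is a string of letters, not a shown binding site, and no match says only that these letters are not in the window.

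Across muscles the members differed most between soleus and EDL. For the call used here, a Benjamini-Hochberg adjusted p below 0.01 over all genes with a fold change above 2 in edgeR's quasi-likelihood test, 7 of 10 members were upregulated in soleus vs EDL (Hspb7, Cryab, Hspb6, Flnc, Bag3, Hspb1 and Des), against 3.59% of all genes tested. In psoas vs EDL 2 of 10 were upregulated (Cryab and Hspb6), against 0.54% of all genes, and in soleus vs psoas 3 of 10 (Hspb7, Cryab and Hspb2), against 2.99%. No member was called lower in any of the 3 comparisons, with 2.18%, 1.57% and 2.71% of all genes lower in the same order. The median log2 fold change of the 10 was 1.62 in soleus vs EDL, 1.18 in psoas vs EDL and 0.70 in soleus vs psoas, against -0.05, 0.01 and 0.02 over all genes. With DESeq2 in place of edgeR 6 members were upregulated in psoas vs EDL, and with the untrimmed libraries alone, where EDL and psoas are 1 library each, the counts were 2, 0 and 0 in the order given. The share of all genes called with DESeq2 is not given here, so its 6 members have no background beside them. At the same limits the paper, which used DESeq2, called more genes in psoas vs EDL than edgeR did here. On simulated data DESeq2 made 13 false calls in psoas vs EDL, against 1 with edgeR. The 3 comparisons share libraries, so their counts are not independent.

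**Figure D1:**
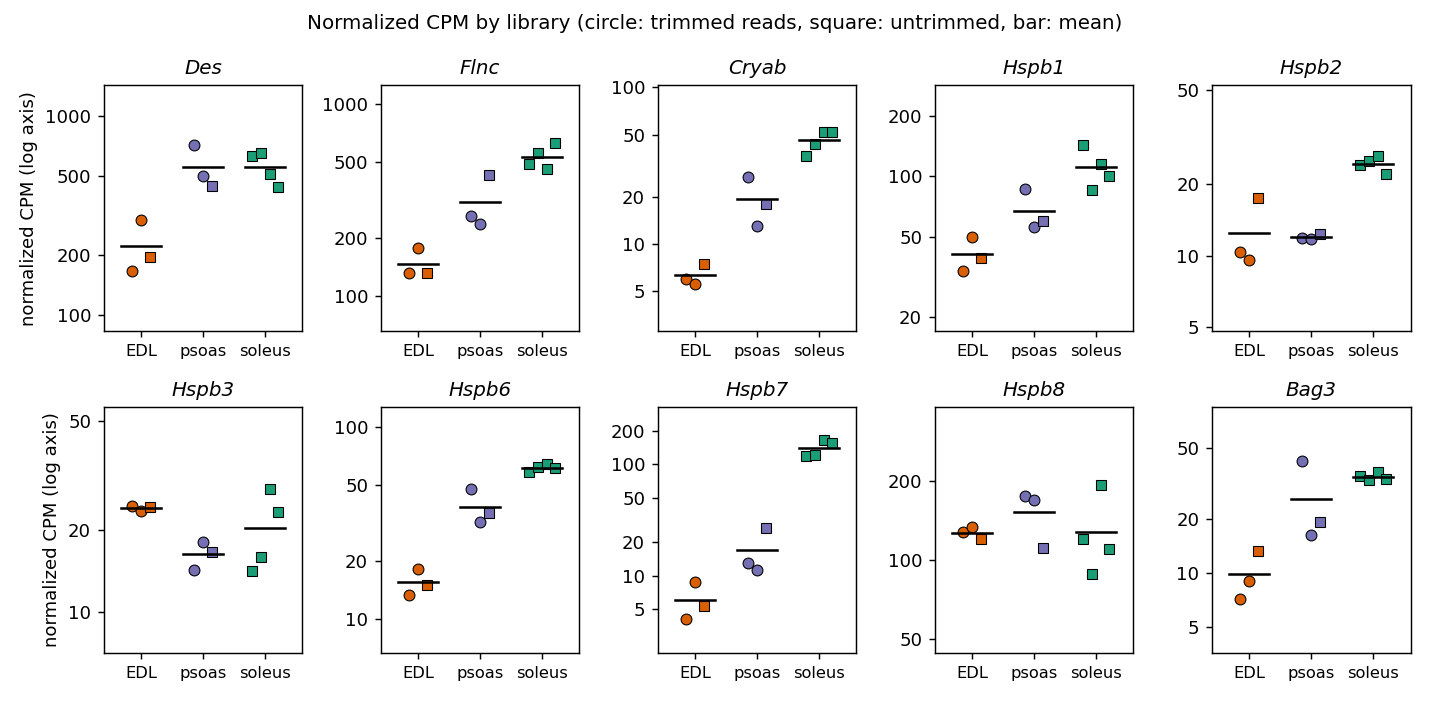
Normalized CPM of each member in each library, on a log axis that differs between panels. Points are libraries, circles trimmed and squares untrimmed, and bars are means of 3 EDL, 3 psoas and 4 soleus libraries. Hspb7 in soleus lies above every other library, whereas Hspb8 overlaps across muscles.

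Hspb7 is a small heat shock protein of heart and skeletal muscle that binds filamin C and restrains actin assembly. Its normalized CPM was 4.04, 8.73 and 5.38 in EDL 1 to 3, 13.1, 11.3 and 26.8 in psoas 1 to 3, and 119.6, 120.9, 165 and 157 in soleus 1 to 4. The 3 muscles did not overlap, and psoas 3 was the highest psoas library. Hspb7 was 23.1-fold higher in soleus than in EDL (95% interval 12.9 to 41.5, log2 4.53 ± 0.386 SE, adjusted p = 7e-05) and 8.27-fold higher than in psoas (4.81 to 14.2, log2 3.05 ± 0.357, adjusted p = 0.000331). Between psoas and EDL the log2 fold change was 1.48 ± 0.353, with adjusted p = 0.0231. With DESeq2 Hspb7 met the call in psoas vs EDL (adjusted p = 0.00066). The call in soleus vs EDL held in all 25 alternatives tried, and in soleus vs psoas it was lost only with the untrimmed libraries alone, where psoas is 1 library, at adjusted p = 0.0176 and a log2 fold change of 2.38.

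Cryab encodes alphaB-crystallin, a chaperone of desmin filaments and of the Z-disk. Its normalized CPM was 6.00, 5.56 and 7.42 in EDL, 26.7, 13.0 and 18.1 in psoas and 36.3, 43.7, 51.8 and 51.9 in soleus. EDL was lowest and soleus highest, with no overlap between muscles. Cryab was 7.29-fold higher in soleus than in EDL (4.92 to 10.8, log2 2.87 ± 0.258, adjusted p = 8.84e-05), 3.08-fold higher in psoas than in EDL (2.08 to 4.54, log2 1.62 ± 0.257, adjusted p = 0.00497) and 2.37-fold higher in soleus than in psoas (1.65 to 3.41, log2 1.24 ± 0.239, adjusted p = 0.00531). The psoas vs EDL call was lost without EDL 1, EDL 2, psoas 1 or psoas 3 (adjusted p = 0.0137 to 0.0278). The soleus vs psoas call was lost without psoas 2, psoas 3, soleus 2, soleus 3 or soleus 4 (adjusted p = 0.0133 to 0.0225). Read trimming (adjusted p = 0.0391) or sex (adjusted p = 0.018) as a covariate also removed the soleus vs psoas call. In soleus vs EDL it was lost only with the untrimmed libraries alone, where EDL is 1 library, at adjusted p = 0.0111.

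Hspb2 is the neighbor of Cryab, lying head to head with it on the other strand of chromosome 9 (Cryab 50751325 to 50756636, plus strand; Hspb2 50751078 to 50752354, minus strand). Exons of the genes overlap by 252 bases, 17.0% of the exon length of Cryab and 30.2% of that of Hspb2, and no source used here gives the strand setting of the counting, so reads of the shared bases cannot be told apart. Hspb2 stood at 10.3, 9.57 and 17.5 normalized CPM in EDL, 11.8, 11.7 and 12.3 in psoas and 24.0, 25.2, 26.3 and 22.1 in soleus. Soleus lay above all other libraries, and EDL 3 stood apart from EDL 1 and 2. In soleus vs psoas Hspb2 was 2.04-fold higher (1.495 to 2.78, log2 1.03 ± 0.204, adjusted p = 0.00639), a call lost without any of the 7 libraries compared in turn (adjusted p = 0.0135 to 0.0286). Hspb2 in soleus vs EDL reached adjusted p = 0.00799 but a fold of 1.97, just short of the call. Without EDL 3 the log2 fold change was 1.29 at adjusted p = 0.000373. With animal as a random effect Hspb2 met the call in soleus vs EDL (log2 1.01, adjusted p = 0.00334) and missed its fold limit in soleus vs psoas (log2 0.98, adjusted p = 0.00397). In psoas vs EDL it was -0.05 ± 0.214 (adjusted p = 0.906), with a 95% interval of 0.698 to 1.33 on the fold.

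**Figure D2:**
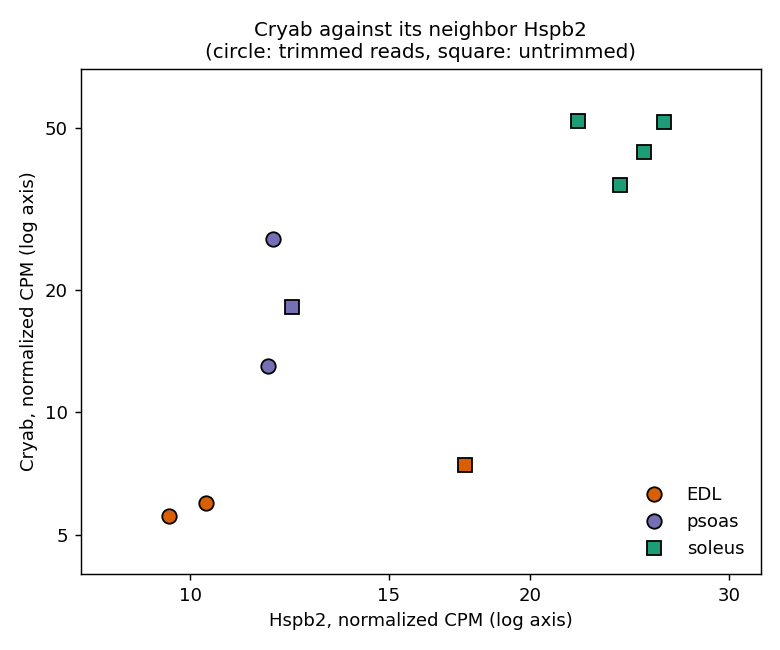
Normalized CPM of Cryab against that of Hspb2 in each library, both on log axes, with circles for trimmed and squares for untrimmed libraries. EDL libraries lie below all psoas libraries for Cryab while EDL 3 lies above all psoas libraries for Hspb2.

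Divided by exon length, the ratio of Cryab to Hspb2 was 0.298 ± 0.0514 in EDL (SD, n = 3), 0.909 ± 0.331 in psoas (n = 3) and 1.07 ± 0.203 in soleus (n = 4). The ratio in EDL, at 0.239 to 0.328, did not overlap that in psoas (0.625 to 1.27) or in soleus (0.851 to 1.33), whereas psoas and soleus overlapped. With the shared bases taken off both lengths, an alternative chosen after the data were seen, it was 0.251, 0.765 and 0.897.

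Des encodes desmin, the main intermediate filament protein of muscle. Its normalized CPM was 166, 302 and 197 in EDL, 716, 497 and 444 in psoas and 626, 650, 513 and 440 in soleus. Both psoas and soleus lay above every EDL library and overlapped each other. Des was 2.51-fold higher in soleus than in EDL (1.68 to 3.76, log2 1.33 ± 0.265, adjusted p = 0.00641), and in psoas vs EDL, at 2.49-fold (1.64 to 3.80, log2 1.32 ± 0.277), adjusted p was 0.0153. The latter met the call with animal as a random effect (adjusted p = 0.00816), with read trimming (adjusted p = 0.00975) or sex (adjusted p = 0.00999) as a covariate and with DESeq2. The soleus vs EDL call was lost without EDL 1, EDL 3, psoas 2 or any of the 4 soleus libraries (adjusted p = 0.0105 to 0.0418). It was also lost with read trimming (adjusted p = 0.0151) or a run proxy built from trimming and age (adjusted p = 0.037) as a covariate. With the replicate number as a block the adjusted p was 0.0126. In soleus vs psoas the log2 fold change was 0.01 ± 0.255, with a 95% interval of 0.685 to 1.49 on the fold. The antisense gene Gm15179 overlaps 220 exon bases of Des and stood at 1.21 to 6.80 CPM.

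Flnc encodes filamin C, the muscle form of the actin crosslinker. It stood at 132, 178 and 132 normalized CPM in EDL, 262, 238 and 425 in psoas and 489, 555, 458 and 629 in soleus. The 3 muscles did not overlap, with soleus highest. Flnc was 3.61-fold higher in soleus than in EDL (2.49 to 5.25, log2 1.85 ± 0.245, adjusted p = 0.000655). Flnc in psoas vs EDL gave a log2 fold change of 1.07 ± 0.25 and adjusted p = 0.022, and in soleus vs psoas 0.79 ± 0.236 and adjusted p = 0.045, neither of which met the call. With DESeq2 Flnc met the call in psoas vs EDL (log2 1.08, adjusted p = 0.000304).

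Hspb6, also called Hsp20, is a phosphorylated small heat shock protein found in striated and smooth muscle. Its normalized CPM was 13.3, 18.3 and 15.1 in EDL, 47.3, 31.8 and 35.8 in psoas and 58.4, 62.2, 63.9 and 61.2 in soleus. Soleus libraries lay within a narrow band, above all psoas libraries, which in turn lay above all EDL libraries. Hspb6 was 3.94-fold higher in soleus than in EDL (3.01 to 5.17, log2 1.98 ± 0.179, adjusted p = 8.84e-05), a call that held in all 25 alternatives, and 2.46-fold higher in psoas than in EDL (1.87 to 3.25, log2 1.30 ± 0.183, adjusted p = 0.00288). The psoas vs EDL call was lost without EDL 1 (adjusted p = 0.0186) or psoas 1 (adjusted p = 0.0102). In soleus vs psoas it was 1.60-fold higher at adjusted p = 0.0209, short of both limits of the call. Exons of Proser3 overlap 122 bases of Hspb6 on the opposite strand, and Proser3 stood at no more than 0.29 CPM.

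Hspb1, also called Hsp27 or Hsp25, is the broadly expressed small heat shock protein that tunes actin filaments. It stood at 33.8, 49.98 and 38.9 normalized CPM in EDL, 85.8, 55.8 and 59.8 in psoas and 142, 84.8, 115 and 100.1 in soleus. Soleus and EDL did not overlap, and soleus 2 fell just below psoas 1. Hspb1 was 2.69-fold higher in soleus than in EDL (1.89 to 3.84, log2 1.43 ± 0.233, adjusted p = 0.00222), and without EDL 1 the adjusted p was 0.0192. The call was also lost with read trimming (adjusted p = 0.0115) or the run proxy (adjusted p = 0.0308) as a covariate. With the replicate number as a block the adjusted p was 0.0108. In psoas vs EDL and in soleus vs psoas the log2 fold change was 0.72 each, with adjusted p of 0.0778 and 0.0569.

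Bag3 carries the Hsp70-binding BAG domain and couples small heat shock proteins to Hsp70. Its normalized CPM was 7.19, 9.08 and 13.4 in EDL, 42.2, 16.3 and 19.3 in psoas and 34.5, 32.9, 36.4 and 33.5 in soleus. Soleus libraries lay close together, while psoas 1 stood above all of them and psoas 2 and 3 below. Bag3 was 3.50-fold higher in soleus than in EDL (2.15 to 5.70, log2 1.81 ± 0.322, adjusted p = 0.00364), a call lost without EDL 1, EDL 2 or soleus 3 (adjusted p = 0.0106 to 0.0254). The call was also lost with read trimming (adjusted p = 0.0276) or the run proxy (adjusted p = 0.061) as a covariate. With the replicate number as a block the adjusted p was 0.0141. In psoas vs EDL the log2 fold change was 1.41 ± 0.332 with adjusted p = 0.0221 (0.00096 with DESeq2, which met the call), and in soleus vs psoas it was 0.40 ± 0.305 with adjusted p = 0.439. Without psoas 1 the latter was 0.93 at adjusted p = 0.0305.

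Hspb8, also called Hsp22, is the small heat shock protein that Bag3 binds directly. Its normalized CPM was 128, 133 and 120.4 in EDL, 176, 169 and 111 in psoas and 120.2, 88.2, 193 and 110.1 in soleus. The muscles overlapped in every pairing, and soleus 3, from the youngest mouse at 32 days, was the highest library. The log2 fold change was 0.01 ± 0.256 in soleus vs EDL (adjusted p = 0.987, 95% interval of the fold 0.681 to 1.48), 0.26 ± 0.274 in psoas vs EDL and -0.25 ± 0.256 in soleus vs psoas. Bag3 was higher in every soleus than in every EDL library while Hspb8 was not, and the difference between the genes was not tested.

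Hspb3 is a muscle small heat shock protein that forms a complex with Hspb2. It stood at 24.6, 23.6 and 24.2 normalized CPM in EDL, 14.3, 18.1 and 16.6 in psoas and 14.2, 15.9, 28.2 and 23.2 in soleus. All psoas libraries lay below all EDL libraries, as for 16.3% of all genes, and soleus spanned both ranges. Between psoas and EDL the log2 fold change was -0.57 ± 0.235 at adjusted p = 0.137, and in soleus vs EDL it was -0.24 ± 0.218 at adjusted p = 0.449.

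**Figure D3:**
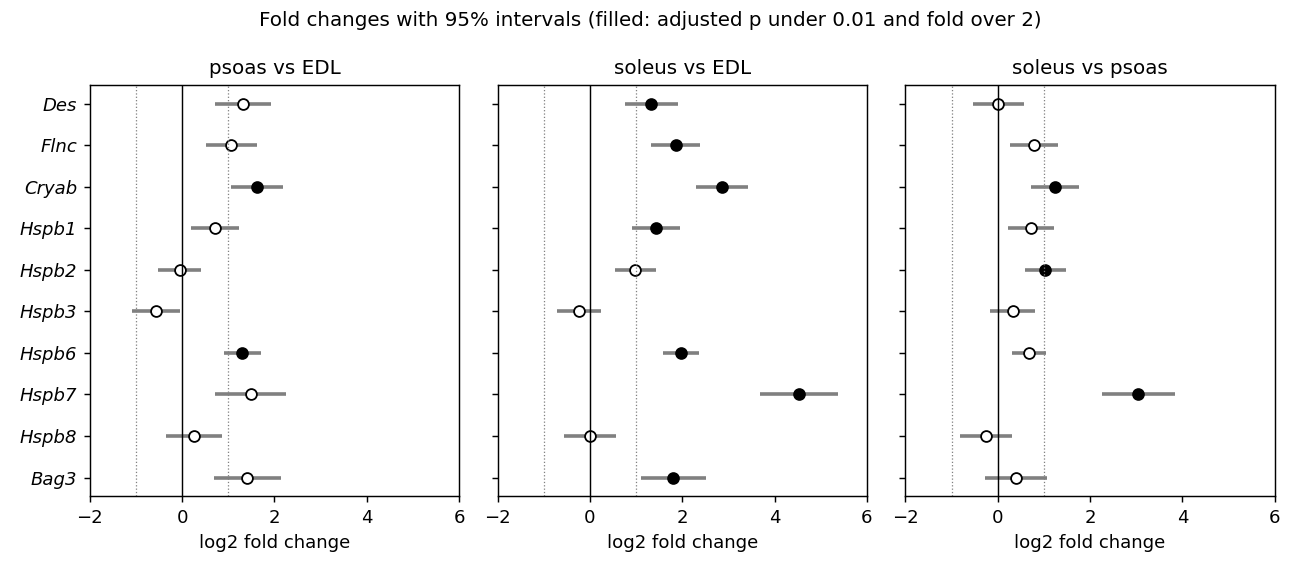
Log2 fold change of each member in the 3 comparisons with its 95% interval from the edgeR fit; filled points passed the call and dotted lines mark 2-fold. In soleus vs EDL 7 of 10 points are filled and that of Hspb7 lies farthest right at 4.53.

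In the weaker sense of libraries that did not overlap, 8 of 10 members were higher in every soleus library than in every EDL library, against 15.2% of all genes, 7 of 10 were higher in every psoas library than in every EDL library, against 13.4%, and 5 of 10 were higher in every soleus library than in every psoas library, against 13.9%. At adjusted p below 0.05 and any fold, 8, 6 and 5 members were higher in the same order, against 9.79%, 4.76% and 7.75% of all genes, and none was lower, against 8.8%, 6.34% and 6.78%. Within the trimmed libraries alone, psoas vs EDL kept the sign of 9 of 10 members, and the same held for the single untrimmed library of each muscle. The libraries of these and the following subsets also gave the main fold changes, so kept signs are no independent check. The share of all genes that kept their sign is not given here. For the 2 members called there, the fold in trimmed and untrimmed libraries was 3.23 and 2.44 for Cryab and 2.49 and 2.37 for Hspb6. Other members differed more between the trimmed and the untrimmed libraries, with 2.05 and 4.97 for Hspb7, 3.25 and 1.44 for Bag3 and 1.63 and 3.22 for Flnc. In the untrimmed libraries, 4 of soleus against EDL 3 alone, all 10 members kept their sign, with Hspb7 25.8-fold, Cryab 6.13-fold, Hspb6 4.06-fold, Flnc 4.00-fold, Des 2.80-fold, Hspb1 2.78-fold and Bag3 2.57-fold higher in soleus. Against psoas 3 alone Hspb7 was 5.20-fold, Cryab 2.51-fold and Hspb2 1.98-fold higher.

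Divided by exon length, the members' order of level changed between muscles. In EDL Hspb8 and Des led, at 64.5 ± 3.49 and 58.5 ± 19.1 FPKM (counts scaled to library size and per kilobase of exon, mean ± SD), followed by Hspb1 at 39.3 ± 8.17, and Hspb7 was last at 2.17 ± 0.877. Hspb8 and Des did not differ beyond their spread in EDL. In psoas Des led at 148 ± 40.1, ahead of Hspb8 at 78.3 ± 19.3 and Hspb1 at 65.4 ± 16.4, the latter pair within their spread, and Hspb7 was again last at 6.15 ± 2.96. In soleus Des stood at 146 ± 24.9 and Hspb1 at 106 ± 24.5, and Hspb8, Flnc and Hspb7 followed at 64.8 ± 24.3, 55.6 ± 7.14 and 50.01 ± 9.07, which overlapped, so that Hspb7 ranked above 5 other members. Cryab, Hspb2, Hspb6 and Hspb3 lay between 25.8 and 30.6 FPKM in soleus, within each other's spread, and Bag3 was last at 13.2 ± 0.869.

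The 7 small heat shock protein genes summed to 162 ± 10.8 FPKM in EDL, 215 ± 34.0 in psoas and 332 ± 55.9 in soleus, and psoas and soleus libraries did not overlap EDL. Within that sum, Hspb8 made up 39.8% ± 2.63 in EDL, 36.2% ± 6.06 in psoas and 19.1% ± 3.82 in soleus. Hspb7 made up 1.32% ± 0.45, 3.01% ± 1.84 and 15.1% ± 1.88, and Cryab 2.62% ± 0.434, 6.01% ± 1.53 and 9.32% ± 1.66. The psoas mean of Hspb7 rests on psoas 3 at 5.13%, and without it was 1.945%. Hspb3 held 18.9% ± 1.57 in EDL against 9.97% ± 2.27 in psoas and 7.70% ± 1.75 in soleus, while Hspb1 held 24.1% ± 3.45, 30.2% ± 3.49 and 31.9% ± 5.86. Shares add to a whole, so a rise of one gene lowers the others, and they were not tested.

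**Figure D4:**
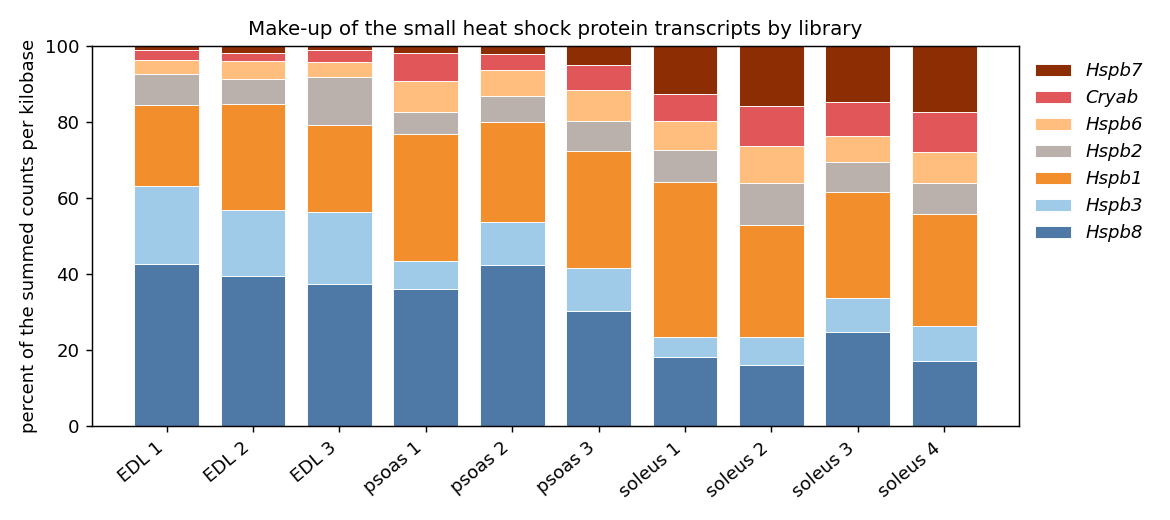
Share of each of the 7 small heat shock protein genes in their summed counts per kilobase, in percent, as stacked bars for each library. Hspb7 takes 12.7% to 17.2% in the soleus libraries and at most 5.13% elsewhere.

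Of 105 related genes on the lists of chaperones, autophagy partners, intermediate filaments and filamin partners, 97 were measured. In soleus vs EDL 14 were upregulated and 2 downregulated, 16.5% of the 97 against 5.77% of all genes, in soleus vs psoas 8 and 2, 10.3% against 5.69%, and in psoas vs EDL 1 and 1, 2.06% against 2.11%. Hspb11 was the measured gene of the other small heat shock protein list, and it was not called. Cryaa, Hspb9, Odf1, Hspa14, Krt8, Krt18, Eppk1 and Kcnd2 were not analysed here.

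Among partners of Bag3 in chaperone-assisted autophagy, 2 of 16 were upregulated in soleus vs EDL, 1 in soleus vs psoas and none in psoas vs EDL, where 3 of 16 reached an adjusted p below 0.05. Synpo2, the adaptor that links Bag3 to the autophagosome machinery, stood at 40.1 ± 10.3 CPM in EDL, 101 ± 41.0 in psoas and 121 ± 19.9 in soleus (log2 1.59 ± 0.279 in soleus vs EDL, adjusted p = 0.00342). Gabarapl1, a ubiquitin-like protein of the autophagosome membrane, was higher in soleus than in EDL (log2 1.09 ± 0.214, adjusted p = 0.00591) and than in psoas (log2 1.42 ± 0.217, adjusted p = 0.00149). Hspa8, the constitutive Hsp70 of the complex, stood at 473 ± 48.9, 683 ± 174 and 835 ± 214 CPM in EDL, psoas and soleus, and in soleus vs EDL it gave log2 0.82 with adjusted p = 0.0393. Stub1, the ubiquitin ligase Chip, gave 8.15 ± 1.14, 10.2 ± 2.69 and 10.2 ± 1.43 CPM (adjusted p = 0.286 in soleus vs EDL), and Sqstm1, the autophagy receptor p62, gave 278 ± 23.8, 281 ± 10.5 and 261 ± 59.6 CPM (adjusted p = 0.758).

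Of the 5 other BAG genes, 2 were upregulated in soleus vs EDL: Bag2 (log2 1.08 ± 0.214, adjusted p = 0.00625) and Bag6 (log2 1.13 ± 0.241, adjusted p = 0.0092). Of 35 large chaperones and heat shock factors, 5 were upregulated in soleus vs EDL, namely Hspa1l, Hspa2, Hspa9, Dnaja4 and Dnajb4, and 3 in soleus vs psoas, Hspa2, Dnaja4 and Dnajb4, with none lower. Hspa1l was at log2 2.19 ± 0.31 (adjusted p = 0.000986), Hspa2 at log2 1.59 ± 0.216 (adjusted p = 0.000767) and Hspa9, the mitochondrial Hsp70, at log2 1.02 ± 0.184 (adjusted p = 0.00397). Dnaja4, an Hsp40 co-chaperone, was at 21.5 ± 2.68 CPM in EDL, 22.3 ± 2.29 in psoas and 75.1 ± 23.5 in soleus (log2 1.80 ± 0.226 vs EDL, adjusted p = 0.000488). Dnajb4, another Hsp40, rose from 44.5 ± 2.84 in EDL to 148 ± 33.3 in soleus (log2 1.74 ± 0.202, adjusted p = 0.000321). Hsf1, the main heat shock factor, stood at 1.07 ± 0.362, 2.34 ± 0.656 and 2.01 ± 0.434 CPM, with adjusted p = 0.0427 in psoas vs EDL and 0.0552 in soleus vs EDL. Hspa1a, the inducible Hsp70, whose near-identical copy Hspa1b makes its counts uncertain, stood at 3.31 ± 1.73, 8.76 ± 9.06 and 19.1 ± 5.32 CPM, and in soleus vs EDL log2 2.49 came with adjusted p = 0.0157.

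Of 15 intermediate filament genes and linkers, Vim was lower in psoas vs EDL (log2 -1.44 ± 0.271, adjusted p = 0.00999), Nrap higher in soleus vs EDL (log2 1.501 ± 0.313, adjusted p = 0.00828) and Lmna higher in soleus vs psoas (log2 1.14 ± 0.146, adjusted p = 0.000533). Vim encodes vimentin, a filament protein of fibroblasts and other non-fiber cells. It stood at 146 ± 46.8 CPM in EDL, 53.7 ± 15.8 in psoas and 99.4 ± 12.9 in soleus, and in soleus vs EDL it gave log2 -0.55 with adjusted p = 0.136. The summed fibroblast markers given above were lower than in EDL in both psoas and soleus, and their part in the Vim result was not tested. Synm, which co-polymerizes with desmin, was at 510 ± 235 CPM in EDL, 788 ± 82.7 in psoas and 357 ± 60.4 in soleus (soleus vs psoas log2 -1.14, adjusted p = 0.0164). Plec, the plectin linker, was at 310 ± 71.1, 593 ± 109 and 899 ± 431 CPM (soleus vs EDL adjusted p = 0.0102). Neither met the call.

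Among 25 filamins and partners of filamin C, 4 were upregulated and 2 downregulated in soleus vs EDL. Myoz2, the slow calsarcin of the Z-disk, was at 699 ± 96.3 CPM in soleus against 37.5 ± 8.02 in EDL and 28.0 ± 24.0 in psoas (log2 4.22 ± 0.54 and 4.65 ± 0.553, adjusted p = 0.000545 and 0.000358), while its fast counterpart Myoz1 was lower, at 275 ± 95.7 CPM against 859 ± 103 and 1206 ± 102 (log2 -1.64 and -2.13, adjusted p = 0.00132 and 0.000307). Xirp1, which binds filamin C at sites of damage, was higher in soleus vs EDL (log2 1.94 ± 0.282, adjusted p = 0.0011) and in soleus vs psoas (log2 1.27 ± 0.274, adjusted p = 0.00992). Synpo2l, a Synpo2 relative, was higher in soleus vs EDL (log2 1.84 ± 0.317, adjusted p = 0.00314), as was Synpo (log2 1.64 ± 0.205, adjusted p = 0.000464). Ky, a filamin C partner, was lower in soleus at 27.3 ± 5.98 CPM against 73.2 ± 39.2 in EDL and 131 ± 25.8 in psoas (adjusted p = 0.00928 and 0.000801), and Pgm5 was higher in soleus vs psoas (log2 1.91 ± 0.403, adjusted p = 0.00886). Ldb3, the Z-disk protein Zasp, was the gene of the list called in psoas vs EDL (log2 1.24 ± 0.177, adjusted p = 0.0031). Flna, which encodes the broadly expressed filamin A, stood at 88.2 ± 28.3, 49.0 ± 12.9 and 66.8 ± 19.4 CPM in EDL, psoas and soleus and did not meet the call. Xirp2 (adjusted p = 0.0187 in psoas vs EDL) and Myot (adjusted p = 0.00877 but only log2 0.95 in soleus vs EDL) did not meet it either. Some calls of related genes held in fewer alternatives than not: in soleus vs EDL Bag6 in 9 of 25, Ky in 10, Hspa9 in 11, Gabarapl1 in 12 and Nrap in 12, in soleus vs psoas Xirp1 in 5 and Pgm5 in 11, and in psoas vs EDL Vim in 9 of 26.

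**Figure D5:**
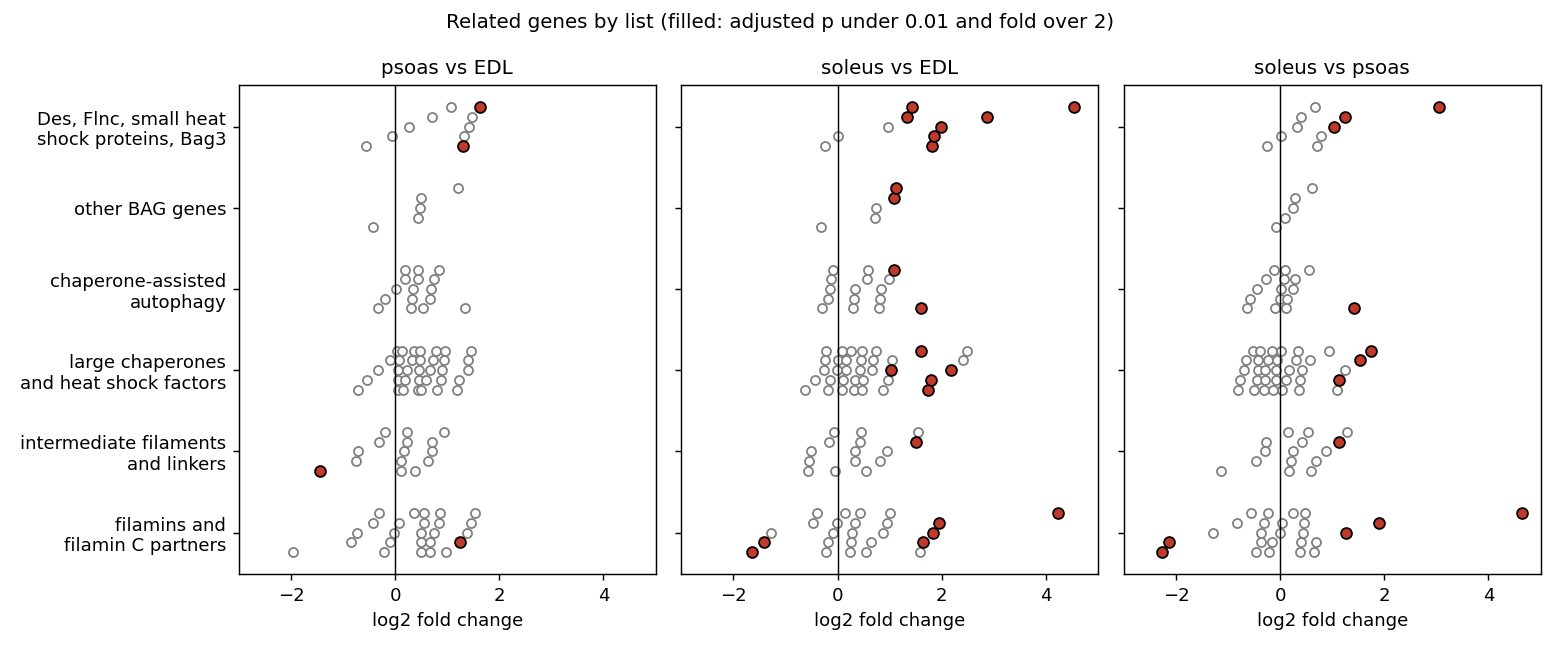
Log2 fold change of the members and of each measured related gene by list in the 3 comparisons, filled where it passed the call; Hspb11, alone on its list, is not drawn. In soleus vs EDL filled points lie to the right in every list shown, and the filamin partner list alone also holds filled points to the left, Myoz1 and Ky.

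The genes most like each member over the 10 libraries were named by the smallest root mean square difference of centered log2 profiles among 6023 genes with a mean of at least 10 CPM; this is a description of levels and carries no statement on function. For Bag3 they were Synpo2l (0.172), Synpo2 (0.213) and Hspb6 (0.287). Hspb2 was closest to Wdr13 (0.13), Mef2c (0.157) and Ap1b1 (0.17), and Hspb1 to Pnpla2 (0.185), Pcbp4 (0.206) and Camta1 (0.244). Hspb6 was closest to Acsl1 (0.22), Perm1 (0.229) and Trak2 (0.236), and Cryab to Coro6 (0.335), Trak2 (0.347) and Ptp4a1 (0.364). Des was closest to Diaph1 (0.226), Znrf2 (0.234) and Aes (0.259), and Flnc to P2rx5 (0.248), Ptpn3 (0.274) and Acsl1 (0.287). Hspb7 had no gene nearer than Dusp18 (0.318), followed by Klhl34 (0.452) and Smtnl1 (0.488). Hspb3 was closest to Rnf13 (0.164), Wdr35 (0.177) and Sec23b (0.181), and Hspb8 to Gm14416 (0.138), Zfp966 (0.144) and Gm14421 (0.149). Among the members themselves the closest pairs were Hspb6 with Bag3 (0.287), Flnc with Hspb6 (0.292) and Hspb1 with Hspb6 (0.319), and the most distant were Hspb7 with Hspb8 (2.06) and with Hspb3 (2.05).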

How the data were processed

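Total RNA from EDL, psoas and soleus of wild-type mice was sequenced from stranded libraries made with an Illumina TruSeq Stranded Total RNA kit and a Ribo-Zero Globin treatment. The deposited values are raw read counts per Ensembl gene ID, and the authors aligned reads with TopHat2 2.1.1 to a GRCm38 build after quality control, with Trimmomatic 0.32 trimming in 4 libraries. The strand setting and the handling of multi-mapped reads in counting are not given in the sources used here. All 16112 genes in the tables had at least 10 counts in at least 3 libraries. Counts were tested with edgeR 4.0.16 (quasi-likelihood test, TMM, all 10 libraries in 1 fit, muscle alone in the model, with no term for mice that gave more than 1 library; R 4.3.3), with Benjamini-Hochberg adjustment over all genes, and a gene was called at adjusted p below 0.01 and a fold change above 2. Standard errors came from the log2 fold change and its F statistic, and intervals are 95%. Normalized CPM came from edgeR, FPKM from DESeq2 1.42.0 with exon lengths of GENCODE M21. Alternatives used DESeq2, limma 3.58.1, other filters and normalizations, covariates and left-out libraries. The sequencing run of each library is not given in the sources used here. The run proxy was therefore built from read trimming and age, and it may differ from the true runs. On simulated data with 200 of 16112 genes changed by a log2 of 3, edgeR recovered 92% in psoas vs EDL, 92.5% in soleus vs EDL and 93.5% in soleus vs psoas. Only Hspb7, when soleus was compared with either fast muscle, changed by more than this among the members. The next largest member change was a log2 of 2.87, for Cryab between soleus and EDL. Recovery of changes smaller than the simulated one was not tested. In psoas vs EDL, soleus vs EDL and soleus vs psoas the simulation gave 1, 3 and 1 false calls with edgeR. With DESeq2 it gave 13, 16 and 12, and with limma-voom 1, 3 and 1. The members and gene lists were chosen with earlier results of these data known. Genes named beside the members were those on the lists that met the call in some comparison, plus Hspa8, Stub1, Synpo2, Sqstm1, Hsf1, Vim, Synm, Plec, Flna, Xirp1, Xirp2, Myot and Hspa1a, Myh7 and Myh4, and the 3 genes closest to each member in profile. A gene that the rule also names is not reported here. Python 3.11.15, pandas 2.3.3 and numpy 2.4.6 made the tables.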

Additional observations from a re-analysis of the deposited data

Results flagged for a closer look

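The share of Hspb1 in the summed counts per kilobase of the 7 small heat shock protein genes was 40.6% in soleus 1, against 27.8% to 29.6% in the other soleus libraries. The gap to the nearest library, divided by the range of the 4 soleus libraries, was 0.858, above Dixon's 95% critical value for 4 libraries. Of 18 such tests on the soleus libraries this was the only one above the value, and chance alone gives about 1 in 20.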

How the results depend on the processing

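Hspb6 and Hspb7 in soleus vs EDL were called in all 25 alternatives, Cryab in 24, Flnc in 22, Hspb1 in 19, Bag3 in 17 and Des in 13, whereas Hspb2 in soleus vs psoas was called in 11 of 25. In psoas vs EDL the number of members called went from 2 to 6 with DESeq2 and at adjusted p below 0.05 with or without the fold limit, and to 0 with a test against a fold of 2, with these muscles alone, with the trimmed libraries alone (chosen after seeing the data), with the untrimmed alone and with the replicate number as a block; leaving out a library gave 0 to 2. In soleus vs EDL it went from 7 to 3 with the test against a fold of 2, 2 with untrimmed libraries, 4 with read trimming as a covariate, 3 with a run proxy as a covariate and 4 with the replicate block, and leaving out a library gave 4 to 7. In soleus vs psoas it went from 3 to 1 with the test against a fold of 2, 0 with untrimmed libraries, 1 with the trimming, run proxy or sex covariate, 1 with the replicate block and 5 at adjusted p below 0.05 with no fold limit, and leaving out a library gave 1 to 3. The cause of these changes was not tested. Of 9 pairs of libraries with the same number, only psoas 1 and soleus 1 shared an animal code (correlation of their deviations 0.34), and EDL and psoas libraries of the same number shared age and trimming. The correlations ran from -0.234 to 0.503, so the numbers were not taken to pair the libraries.

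Values near 0 changed sign in some alternatives. Hspb2 in psoas vs EDL, at -0.05, became 0.030 with limma-voom, 0.23 with trimmed libraries, 0.00042 with the trimming covariate, 0.0010 with the run proxy and 0.034 with animal as a random effect, and -0.21 to 0.27 when a library was left out. Hspb8 in psoas vs EDL became -0.16 with untrimmed libraries. Hspb8 in soleus vs EDL, at 0.01, became -0.040 with limma-voom, -0.085 with upper-quartile normalization, -0.044 with the filter at 1 CPM, -0.0071 with filterByExpr, -0.12 with the run proxy, -0.20 with the sex covariate and -0.071 with animal as a random effect, and -0.31 to 0.15 when a library was left out. Des in soleus vs psoas, at 0.01, became -0.017 with DESeq2 and with its size factors, -0.0048 with upper-quartile normalization and -0.00023 with the 1 CPM filter, and -0.12 to 0.22 when a library was left out. Hspb8 in soleus vs psoas, at -0.25, became 0.19 with untrimmed libraries and 0.017 with the trimming covariate. Of the fold changes of called members, 229 held and 73 were no longer past the threshold; of the others 419 held and 10 passed it. With untrimmed libraries alone EDL and psoas are 1 library each, so the fall in calls there also comes with fewer libraries. Libraries held 12737971 to 50431713 counts, and Hspb7 in EDL rests on 98 to 463 counts.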

Other observations

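Other cell type lists were summed in the same way. Endothelial markers gave 113 to 204 CPM in EDL, 112 to 127 in psoas and 140 to 163 in soleus, and adipocyte markers 89.5 to 205, 81.6 to 155 and 130 to 212. Fabp4 made up most of the adipocyte sum, at 152 ± 63.0 CPM in EDL, 108 ± 30.8 in psoas and 133 ± 24.7 in soleus. The median log2 fold change of the 5 adipocyte genes was 1.94 in soleus vs EDL and 1.78 in soleus vs psoas, and none met the call. Macrophage markers gave 103 to 252, 39.3 to 112 and 78.2 to 119, Schwann cell markers 34.5 to 55.6, 18.0 to 88.2 and 30.1 to 41.9, and erythroid markers 5.77 to 73.3, 16.4 to 137 and 3.54 to 25.7. Of the macrophage markers Mrc1 alone was called, lower in psoas vs EDL (adjusted p = 0.00658) and in soleus vs EDL (adjusted p = 0.00967). All erythroid markers but Alas2 are globin genes, and the paper states a Ribo-Zero Globin treatment. The erythroid sum therefore cannot be read as blood content. Satellite cell and regenerating fiber genes, among them the perinatal myosin Myh8, gave 921 to 1020 in EDL, 1035 to 1551 in psoas and 380 to 534 in soleus. Myh8 made up most of that sum, at 933 ± 31.1 CPM in EDL, 1303 ± 256 in psoas and 373 ± 93.9 in soleus. The median log2 fold change of the 6 genes was 0.65 in soleus vs EDL and 0.716 in soleus vs psoas. Myh8 was called lower in both comparisons, and Ncam1 was called higher in soleus vs psoas. Immediate early genes, which respond to dissection and handling, gave 85.4 to 187, 70.2 to 140 and 80.7 to 278. The median log2 fold change of these 10 genes was -1.39 in psoas vs EDL, -0.079 in soleus vs EDL and 1.62 in soleus vs psoas. Of these genes Nr4a1 alone was called, lower in soleus vs psoas (log2 -2.47 ± 0.34, adjusted p = 0.000839).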
